A study of Mus musculus with 6 samples.

Results

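The 10 genes described here encode subunits and relatives of the transcription factor AP-1, or belong to the immediate-early genes that cells switch on first after a stimulus. They are Fos, Fosb and Fosl2 of the Fos family, Jun, Junb and Jund of the Jun family, the related factors Atf3 and Maff, the zinc-finger factor Egr1, and Ier3, an immediate-early gene that encodes a survival protein and no transcription factor. They were chosen by gene symbol, and all 10 were found among the 24394 symbols of the transcript tables.

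Bone marrow-derived macrophages (BMMs) of C57BL/6 mice at postnatal day 28 were compared by RNA-seq after 24 hours with or without cartilage fragments, to ask how macrophages respond to cartilage debris of the kind found in osteoarthritic joints. Both groups came from marrow monocytes grown for 7 days in 50 ng/ml macrophage colony-stimulating factor, and each group had 3 libraries. Control macrophages received no fragments, and stimulated macrophages received crushed femoral head cartilage at 5 fragments to 1 cell. The fragments came from the same mice as the marrow. The sources do not say whether the 3 libraries of a group came from separate animals or cultures, so that p-values measure the spread between these libraries only.

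AP-1 is a dimer of basic leucine zipper (bZIP) proteins. Jun proteins pair with themselves or with Fos proteins, whereas Fos proteins need a partner, and the dimers bind short palindromes in promoters and enhancers. In macrophages, microbial products and cytokines act through MAP kinases to raise Fos, Jun and Egr1 within the first hour, and these transcripts are short-lived. The single time point here lies well after that window, so an early pulse could not be seen.

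None of the 10 genes differed between the groups past the threshold. The values are FPKM, fragment numbers scaled for both transcript length and library size, and 8 of the 10 averaged 1 FPKM or more over the 6 libraries and entered the test, limma on log2(FPKM + 0.1) with Benjamini-Hochberg adjustment over 10393 genes. Of those 8, 0 had an adjusted p below 0.05 in limma, where 0.366% of all tested genes did. Likewise 0 had an unadjusted p below 0.05, against 9.19% of all tested genes, and 0 passed when fragments estimated from the deposited coverage were tested in place of FPKM, against 2.36%. The 3 control and the 3 stimulated values did not overlap for 1 of the 8, Atf3, and such separation was seen for 15.9% of all tested genes. The median log2 fold change of the 8 was 0.02 and their median absolute log2 fold change was 0.12, beside 0.23 over all tested genes.

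**Figure D1:**
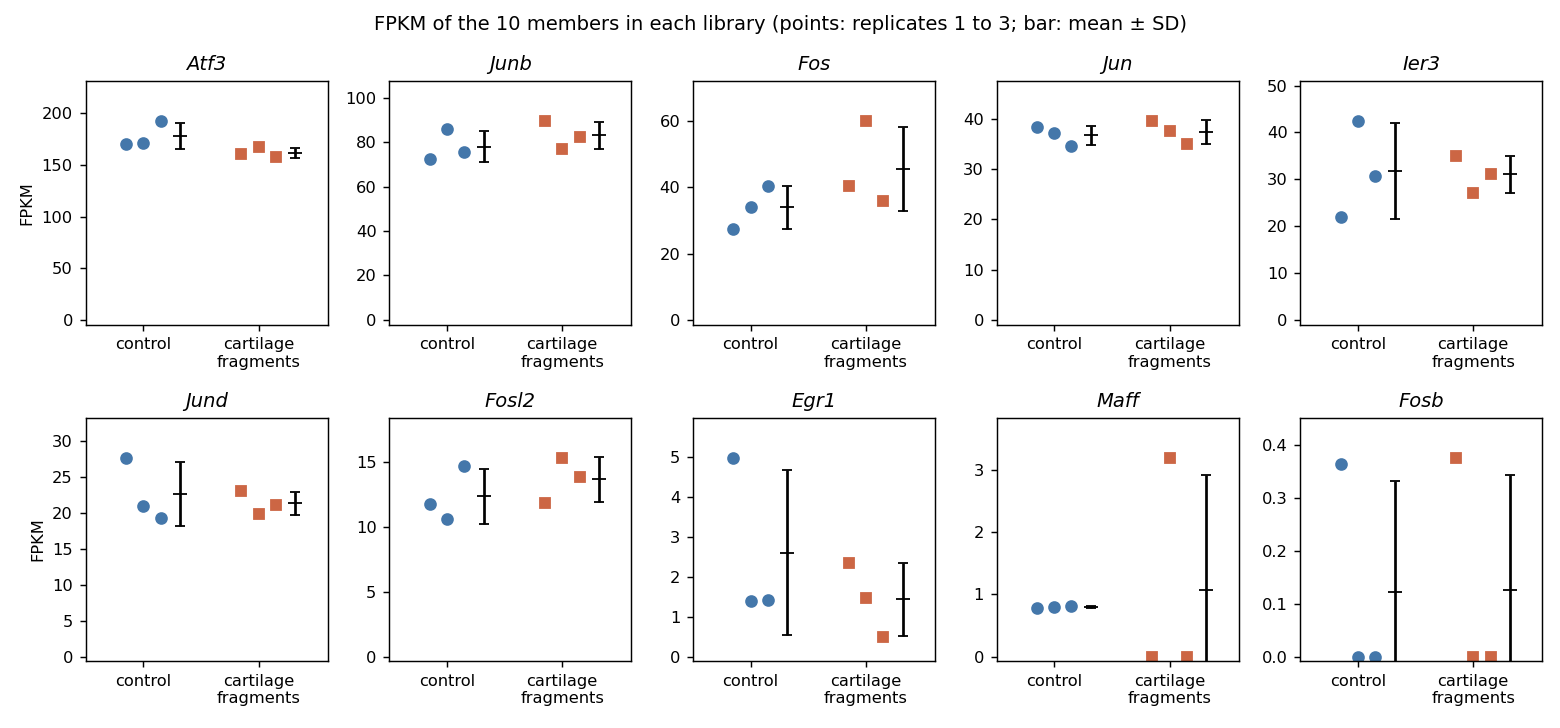
FPKM of each of the 10 genes (vertical axes, each from 0) in the 3 control and 3 stimulated libraries, shown as points, with the mean and SD of each group as a bar (cut off at 0 for Maff and Fosb). The groups overlap for all but Atf3, whose stimulated values of 158 to 167 FPKM lie below the control values of 170 to 193 FPKM.

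The depth implied by the deposited coverage was low, far below the read number in the study's methods, and this sets what could be seen. The deposited coverage corresponded to 699237 to 776371 fragments per library, and a gene at 37 FPKM such as Jun rested on 72 to 89 fragments per library. The macrophage markers Csf1r, Cd68 and Lyz2 were abundant in both groups. Of 8 macrophage markers, 2 passed the test, both higher with fragments: Adgre1, the F4/80 antigen, rose from 365 ± 13.4 to 549 ± 22.0 FPKM (SD, n = 3 each, limma adjusted p = 0.00965) and Cd14, a receptor for lipopolysaccharide, rose from 118 ± 5.28 to 183 ± 14.8 FPKM (limma adjusted p = 0.0388). Neither passed from reference transcripts alone (limma adjusted p = 0.62 and 0.761). Of 20 alternatives the call of Adgre1 was lost in 6, among them without stimulated library 1 or 2 (limma adjusted p = 0.0815 and 0.0557), and that of Cd14 in 12, among them the omission of any 1 library (limma adjusted p = 0.0557 to 0.2). Fcgr1, an IgG receptor, had a log2 fold change of 0.56 (limma adjusted p = 0.616). From estimated fragments 3 of the 8 passed: Adgre1, Cd14 and Itgam, the last named after its values were seen (limma adjusted p = 0.000218). Itgam was at 354 ± 7.98 FPKM in control and 425 ± 18.5 FPKM in stimulated macrophages (SD, n = 3 each, limma adjusted p = 0.182 from FPKM). Of the 8 chondrocyte markers, none reached the test, 4 were at 0 in all libraries, and their summed level was 1.15 to 3.28 FPKM in control macrophages and 0.985 to 1.59 FPKM in stimulated macrophages. All 5 lymphocyte markers were at 0. The 6 fibroblast markers summed to 155 to 169 FPKM in control macrophages and to 103 to 119 FPKM in stimulated macrophages, with log2 fold changes of -0.72 for Col1a1, -0.41 for Col1a2 and -0.70 for Col3a1 (limma adjusted p = 0.0849, 0.29 and 0.718). From estimated fragments Col1a1 and Col1a2 passed and were lower (limma adjusted p = 3.74e-06 and 0.00414). The neutrophil markers summed to 733 to 839 FPKM in control and to 683 to 990 FPKM in stimulated macrophages (Ly6g was not found). S100a8 averaged 318 and 377 FPKM and S100a9 443 and 391 FPKM (control and stimulated). Mpo and Elane were at 1.88 FPKM or lower in every library. S100a8, S100a9 and Camp had log2 fold changes of 0.25, -0.21 and 1.12 (limma adjusted p = 0.706, 0.731 and 0.714). The part of other cell types in the values that follow was not tested.

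The 4 AP-1 genes with the highest FPKM were Atf3, Junb, Fos and Jun, and the 250 bases that precede their RefSeq start (build GRCm38, written 5′ to 3′ on the gene's strand) are shown so that their AP-1 and CRE-like letters can be read beside their levels. Capitals mark every match, on either strand, to TGANTCA (the AP-1 site), TGACNTCA (the related CRE-like site) or TGACG (a shorter CRE core, which overlaps TGACNTCA where N is G). The CArG box of serum response factor was also searched for.
Atf3, chr1:191183334-191183583, minus strand: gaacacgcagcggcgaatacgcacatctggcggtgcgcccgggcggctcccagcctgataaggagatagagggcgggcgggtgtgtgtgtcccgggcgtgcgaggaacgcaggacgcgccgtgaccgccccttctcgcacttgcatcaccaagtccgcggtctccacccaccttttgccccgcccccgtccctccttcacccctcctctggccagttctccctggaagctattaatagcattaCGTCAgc
Junb, chr8:84978749-84978998, minus strand: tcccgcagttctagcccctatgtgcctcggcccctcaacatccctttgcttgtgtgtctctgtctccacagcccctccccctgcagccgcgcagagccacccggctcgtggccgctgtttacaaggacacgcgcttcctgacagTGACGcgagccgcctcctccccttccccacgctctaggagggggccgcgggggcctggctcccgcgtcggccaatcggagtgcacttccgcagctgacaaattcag
Fos, chr12:85473640-85473889, plus strand: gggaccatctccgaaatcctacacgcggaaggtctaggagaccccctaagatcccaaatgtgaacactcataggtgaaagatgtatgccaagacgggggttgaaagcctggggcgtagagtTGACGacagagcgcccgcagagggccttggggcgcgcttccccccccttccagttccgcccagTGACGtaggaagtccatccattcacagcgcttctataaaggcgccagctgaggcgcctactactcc
Jun, chr4:95052223-95052472, minus strand: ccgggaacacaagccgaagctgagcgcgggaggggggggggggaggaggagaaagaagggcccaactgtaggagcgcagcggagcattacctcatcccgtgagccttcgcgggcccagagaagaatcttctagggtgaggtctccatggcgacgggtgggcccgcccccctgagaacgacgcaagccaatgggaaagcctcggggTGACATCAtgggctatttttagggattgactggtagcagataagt

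Jun held 1 match to TGACNTCA, with the letters TGACATCA, 45 to 38 bases before its start. Fos held TGACG at 129 to 125 and at 66 to 62 bases before its RefSeq start, which lies 11 bases upstream of the start of the Fos transcript in the files. Junb held TGACG at 106 to 102 bases, and Atf3 held its reverse complement, CGTCA, at 7 to 3 bases. Promoter windows of 9 of the 10 genes were searched, all but Egr1, with 11 windows in all since 3 starts of Maff were searched. Fosb and Maff also held matches, and no window searched held TGANTCA or the CArG box. That absence holds for the searched windows only. Bases farther upstream, the promoter of Egr1 and a further start of Maff were not searched. Whether these hold either set of letters was not tested. Among all 32851 mouse promoter windows of this length, 6.75% held TGANTCA, 7.49% TGACNTCA, 17.8% TGACG and 1.47% the CArG box. A match describes letters and not bound sites, and no binding was measured here.

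Atf3, a bZIP factor induced by many stresses that often acts as a repressor, was the most abundant of the 10 in every library. Its gene lies at chr1:191170297-191183333 in mm10, the build of the files. The FPKM of Atf3 was 170, 172 and 193 in control macrophages 1 to 3 and 160, 167 and 158 in macrophages cultured with cartilage fragments 1 to 3. Each stimulated value thus lay below each control value, although the gap between the groups was small. The means were 178 ± 12.5 and 162 ± 4.82 FPKM (SD, n = 3 each). The log2 fold change was -0.14 (SE 0.084, 95% confidence interval -0.33 to 0.05), and limma gave an adjusted p of 0.664. The interval corresponds to 0.794 to 1.04 times the control level. Atf3 rested on 716 control and 619 stimulated fragments, so it was the most precisely measured of the 10. Over 20 alternative settings its log2 fold change stayed negative, between -0.18 and -0.08, and the lowest limma adjusted p was 0.589.

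Among the Jun family, Junb had the highest level. It encodes a subunit that binds DNA with Fos proteins and restrains Jun in some settings. The gene has no intron (chr8:84976909-84978748, mm10). Its FPKM was 72.3, 86.0 and 75.6 in control macrophages and 89.6, 77.1 and 82.3 in stimulated macrophages, and the groups overlapped. The means were 78.0 ± 7.11 and 83.0 ± 6.26 FPKM (SD, n = 3 each). The log2 fold change was 0.09 (SE 0.115, 95% confidence interval -0.17 to 0.36, limma adjusted p = 0.839), which corresponds to 0.886 to 1.28 times the control level.

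The Junb value of stimulated library 2 depended on which rows of the table were summed. There the quantification gave 38.6 FPKM to the named reference transcript and an equal 38.6 FPKM to an unnamed assembled transcript with the same ends and the same length of 1840 bases. From named rows alone, the stimulated mean was 70.1 ± 27.6 FPKM (SD, n = 3) and the log2 fold change was -0.24 (SE 0.337, limma adjusted p = 0.829). The sign of the Junb difference therefore changed with the rows used, and it passed the test under neither. The library values overlapped in both cases. All unnamed transcripts, whether or not they lay in a named gene, carried 15.8% to 19.96% of all FPKM in a library. Exact copies of a reference transcript occurred for 3 to 6 symbols per library.

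**Figure D2:**
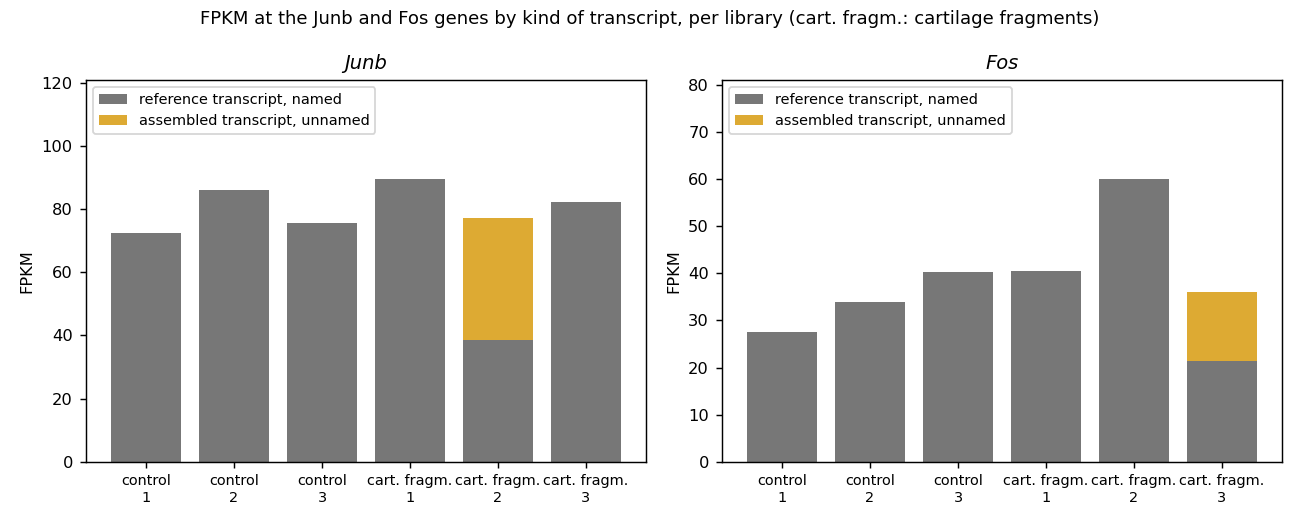
FPKM (vertical axis, from 0) of Junb and Fos in each library, with the part given to the named reference transcript in grey and the part given to unnamed assembled transcripts of the same gene in yellow. Unnamed transcripts appear at Junb in stimulated library 2 (38.6 FPKM) and at Fos in stimulated library 3 (14.6 FPKM), and in no control library.

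Jun, the founding subunit of AP-1 and a target of JNK kinases, varied least over the 6 libraries among the 8 tested genes. Its gene, also without an intron, lies at chr4:95049036-95052222. The FPKM of Jun was 38.4, 37.2 and 34.6 in control macrophages and 39.6, 37.5 and 34.9 in stimulated macrophages. The values of the groups interleaved, with means of 36.7 ± 1.91 and 37.3 ± 2.35 FPKM (SD, n = 3 each). The log2 fold change was 0.02 (SE 0.132, 95% confidence interval -0.28 to 0.33, limma adjusted p = 0.978). The interval reaches from 0.823 to 1.25 times the control level. The coefficient of variation between libraries was 5.20% in control and 6.30% in stimulated macrophages, below the counting error of 10.97% and 11.1% that the fragment numbers alone would give.

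Jund, the subunit that is present in most resting cells, was the lowest of the Jun family. It was listed at 27.7, 21.0 and 19.3 FPKM in control macrophages and at 23.1, 19.9 and 21.1 FPKM in stimulated macrophages. Control library 1 was the highest of the 6, and the groups overlapped. The log2 fold change was -0.07 (SE 0.187, 95% confidence interval -0.50 to 0.36, limma adjusted p = 0.936). Without control library 1 it was 0.08.

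Summed over Jun, Junb and Jund, the Jun family reached 137 ± 7.37 FPKM in control and 142 ± 9.34 FPKM in stimulated macrophages (SD, n = 3 each). Junb supplied 56.7% ± 3.94 of this sum in control and 58.6% ± 1.12 in stimulated macrophages. These are levels per transcript length, so the members can be set side by side. The values of the groups overlapped for the sum and for the share of Junb.

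Fos, the partner of Jun that is the classic serum-induced gene, had the largest positive difference of the 8 tested genes. Its reference transcript spans chr12:85473901-85477270. The FPKM of Fos was 27.5, 34.0 and 40.3 in control macrophages and 40.5, 60.1 and 36.0 in stimulated macrophages. Stimulated library 2 stood highest, whereas stimulated library 3 lay within the control range, so the groups overlapped. The means were 33.9 ± 6.37 and 45.5 ± 12.8 FPKM (SD, n = 3 each), a log2 fold change of 0.40 (SE 0.228, 95% confidence interval -0.12 to 0.93) with a limma adjusted p of 0.648. The interval corresponds to 0.920 to 1.91 times the control level.

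The fragments behind Fos numbered 145 in control and 180 in stimulated macrophages. Corrected for library size, their ratio was 1.30, with a 95% interval of 1.04 to 1.63 that covers counting error only. The spread between stimulated libraries was larger than counting error: the coefficient of variation was 28.1%, and counting error would give 12.9%. Without stimulated library 2 the log2 fold change of Fos was 0.19 (limma adjusted p = 0.841). In stimulated library 3, 21.3 FPKM belonged to the named transcript and 14.6 FPKM to an unnamed assembled transcript of 1503 bases within the gene. From named rows alone the stimulated mean was 40.6 ± 19.4 FPKM (SD, n = 3) and the log2 fold change was 0.15 (SE 0.397, limma adjusted p = 0.92).

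Fosl2, which encodes the Fos relative Fra-2, was listed at 11.7, 10.6 and 14.7 FPKM in control macrophages and at 11.8, 15.3 and 13.8 FPKM in stimulated macrophages. The groups overlapped, with a log2 fold change of 0.15 (SE 0.206, 95% confidence interval -0.32 to 0.63, limma adjusted p = 0.851). Fosb, an inducible Fos relative, was close to the limit of these libraries. It was listed at 0.364 FPKM in control library 1, at 0.376 FPKM in stimulated library 1 and at 0 in the other 4 libraries, which is 1 fragment in each group. A difference in Fosb was not detectable at this depth, and it was not tested.

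The Fos family summed to 46.4 ± 7.81 FPKM in control and 59.3 ± 14.0 FPKM in stimulated macrophages (SD, n = 3 each). The ratio of the Jun to the Fos sum was 3.49, 3.23 and 2.36 in control and 2.89, 1.79 and 2.78 in stimulated macrophages. The Jun sum exceeded the Fos sum in all 6 libraries, and the ratios of the groups overlapped.

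**Figure D3:**
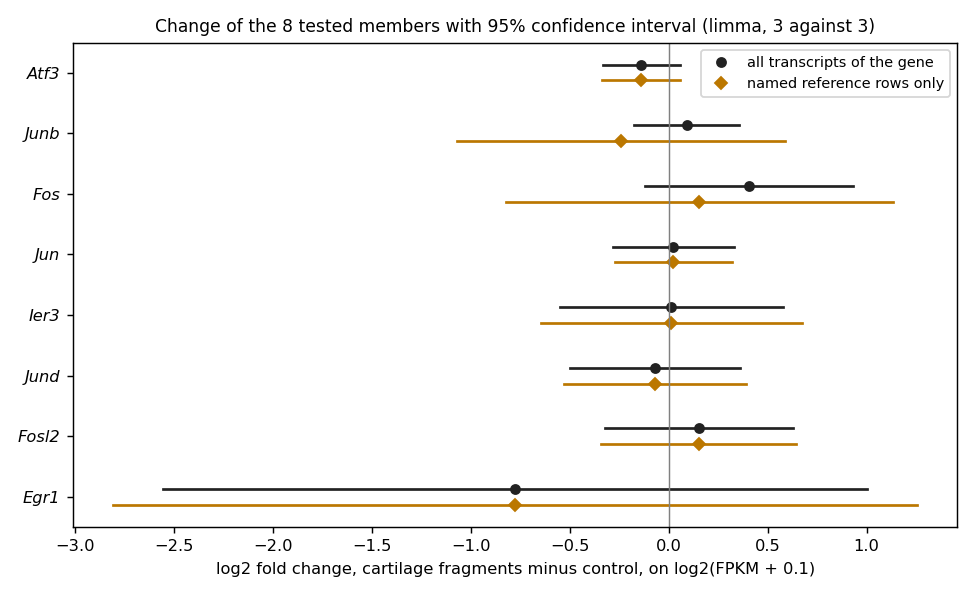
Log2 fold change of the 8 tested genes, stimulated minus control on log2(FPKM + 0.1) (horizontal axis), with 95% confidence intervals from limma, for all transcripts of a gene (black) and for named reference rows only (orange). Every interval includes 0, the narrowest is that of Atf3 (-0.33 to 0.05) and the widest that of Egr1 (-2.56 to 1.00 from all transcripts).

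Egr1 encodes a zinc-finger factor that growth factors induce through ERK. It was low, at 4.99, 1.40 and 1.42 FPKM in control macrophages and at 2.34, 1.46 and 0.504 FPKM in stimulated macrophages. Control library 1 stood apart at the top and stimulated library 3 was lowest, but the groups overlapped. The log2 fold change was -0.78 (SE 0.772, 95% confidence interval -2.56 to 1.00, limma adjusted p = 0.804). With 17 control and 9 stimulated fragments, the interval spans 0.170 to 2.01 times the control level. Without control library 1 the log2 fold change of Egr1 was -0.19, and without stimulated library 3 it was -0.21.

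Ier3, which protects cells from death and is itself induced by NF-κB signalling, was listed at 22.0, 42.5 and 30.7 FPKM in control macrophages and at 35.0, 27.0 and 31.1 FPKM in stimulated macrophages. The lowest and the highest value were both control libraries. The means were 31.7 ± 10.3 and 31.0 ± 4.02 FPKM (SD, n = 3 each), with a log2 fold change of 0.01 (SE 0.245, 95% confidence interval -0.55 to 0.58, limma adjusted p = 0.997). Its short transcript of 1090 bases collected only 63 control and 59 stimulated fragments.

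Maff, a small Maf protein that lacks a transactivation domain, was the 1 member with several reference transcripts, 4 in all. It was listed at 0.777, 0.801 and 0.812 FPKM in control macrophages, 1 fragment in each library. In stimulated macrophages it was listed at 3.20 FPKM in library 2, which is 4 fragments, and at 0 in libraries 1 and 3. The ratio of fragments was 1.39 with a counting interval of 0.236 to 9.52. Maff did not reach the mean needed for the test.

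**Figure D4:**
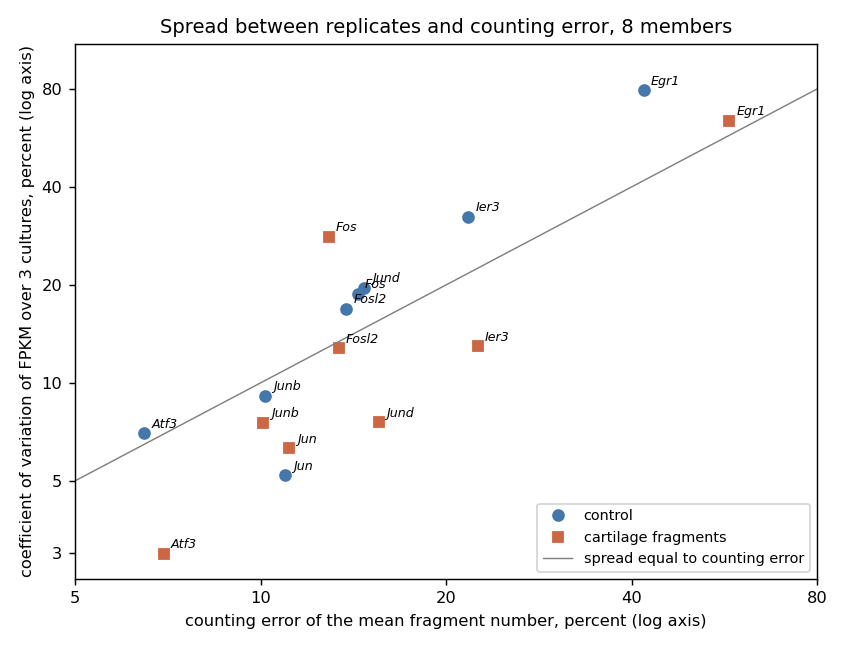
Coefficient of variation of FPKM over the 3 libraries of a group (vertical axis, percent, log scale) against the counting error of the mean fragment number (horizontal axis, percent, log scale) for the 8 tested genes in control (blue circles) and stimulated macrophages (red squares), with the line where both are equal. Jun and Junb lie below the line in both groups. Of the stimulated points, only Fos (28.1% against 12.9%) and Egr1 (63.9% against 57.7%) lie above it, Fos the farther.

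In order of mean level, Atf3 (170 FPKM over the 6 libraries) lay above Junb (80.5 FPKM) and Junb above Fos (39.7 FPKM) with no overlap of their ranges. Fos, Jun, Ier3 and Jund followed, and neighbours among these overlapped. Fosl2 lay below Jund in 6 of 6 libraries and above Egr1 in 6 of 6, again without overlap. Egr1, Maff and Fosb overlapped as neighbours at the bottom. The sum over the 10 genes was 397 ± 18.3 FPKM in control and 396 ± 16.6 FPKM in stimulated macrophages (SD, n = 3 each), of which Atf3 made up 44.9% ± 2.33 and 40.8% ± 1.01. In bulk RNA, fewer cells that express a gene and less RNA per cell cannot be told apart.

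The genes whose log2 values followed Atf3 most closely over the 6 libraries, among 5517 genes averaging 10 FPKM or more, were Tmod3, H2-M3 and Sec23b (Pearson r = 0.995, 0.983 and 0.979). For Junb they were Gpx1, Adrm1 and Ndufs6 (Pearson r = 0.994, 0.986 and 0.985). With 6 libraries and this many genes these are descriptions only, and the values share their libraries and depth.

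The genes around the 10 were read from lists of the pathway. Of 12 tested other bZIP factors, 0 passed the test in limma, and their median log2 fold change was 0.02. The largest differences were those of Batf3 (log2 fold change -1.92, limma adjusted p = 0.816), Batf2 (-1.02, 0.843) and Jdp2 (0.91, 0.707). Batf3 and Batf2 are partners of Jun proteins in dendritic cells and macrophages, and both were below 3 FPKM on average in each group. With a pseudocount of 1 FPKM their log2 fold changes were -0.89 and -0.26. Of 23 tested other immediate-early genes, 0 passed, with a median of -0.11. There Nr4a1, a nuclear receptor, had a log2 fold change of 1.05, Myc of -1.18 and Csrnp1 of -0.65 (limma adjusted p = 0.667, 0.817 and 0.826), all at low levels. From estimated fragments 1 gene of this list passed, Ier5, named after its values were seen (limma adjusted p = 0.0126). It was at 39.997 ± 2.42 FPKM in control and 26.3 ± 4.29 FPKM in stimulated macrophages (SD, n = 3 each), without overlap, with a log2 fold change of -0.62 (limma adjusted p = 0.242 from FPKM).

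Upstream of AP-1, 22 genes of the MAP kinase pathway were tested and 0 passed, with a median log2 fold change of -0.05. Mapkapk2, the kinase downstream of p38 that stabilises cytokine transcripts, was at 122, 117 and 111 FPKM in control macrophages and at 167, 159 and 145 FPKM in stimulated macrophages. The groups did not overlap, and the log2 fold change was 0.42 (SE 0.092, limma adjusted p = 0.133). With estimated fragments in place of FPKM, Mapkapk2 passed (limma adjusted p = 0.00319). Elk3, an ETS factor, had a log2 fold change of 0.43 (limma adjusted p = 0.634). Mapk8, which encodes JNK1, had one of -1.16 (limma adjusted p = 0.482), but 2.29 (limma adjusted p = 0.797) from reference transcripts alone, so its direction was not settled.

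Of the feedback inhibitors of the pathway, 8 were tested and 0 passed, with a median of 0.30. Dusp4, a nuclear MAP kinase phosphatase, was at 5.18 ± 1.31 FPKM in control and 9.59 ± 3.69 FPKM in stimulated macrophages (SD, n = 3 each, log2 fold change 0.83, limma adjusted p = 0.535). Spry2 and Spred1, which restrain the Ras pathway, had log2 fold changes of -0.49 and 0.46 (limma adjusted p = 0.808 and 0.541).

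Among 16 tested genes known as AP-1 targets, 1 passed the test and rose, and the median log2 fold change was 0.21. That gene was Il1b, the pro-inflammatory cytokine interleukin-1β. The FPKM of Il1b was 2.32, 2.39 and 2.42 in control macrophages and 14.4, 15.01 and 15.5 in stimulated macrophages. The groups were far apart, with a log2 fold change of 2.60 (SE 0.218, limma adjusted p = 0.00283), and Il1b passed under all 20 alternatives. The control values were low, however. Egr1 at 2.34 FPKM in stimulated library 1 rested on 5 fragments over 3072 bases, and a shorter transcript at that FPKM would rest on fewer. Within each group the FPKM of Il1b rose as the estimated fragment total of the library fell. These totals fell from 776371 to 742835 over control libraries 1 to 3 and from 754139 to 699237 over stimulated libraries 1 to 3. The small spread and SE of Il1b, on which its calls rest, may therefore not cover counting error. The study's paper, from its own test, states that IL-1β was not upregulated. Tnf, tumour necrosis factor, was at 12.6, 12.9 and 14.1 FPKM in control and at 64.0, 52.3 and 27.0 FPKM in stimulated macrophages. The groups of Tnf did not overlap, but stimulated library 3 was the lowest of its group, and the log2 fold change of 1.76 (SE 0.301) had a limma adjusted p of 0.0818. Without stimulated library 3 it was 2.13 (limma adjusted p = 0.00863), and from estimated fragments it was 1.67 (limma adjusted p = 4.79e-05). Tnf passed under these 2 of the 20 alternatives and not under the other 18. Ccl2, a monocyte chemokine, had a log2 fold change of 2.76 with an SE of 1.38 (limma adjusted p = 0.6). Without control library 2, where Ccl2 was listed at 0, it was 1.08, and from estimated fragments it was 1.54. From estimated fragments 3 genes of the list passed: Il1b, Tnf and Mmp9, a matrix-degrading protease named after its values were seen (limma adjusted p = 0.00286). Mmp9 was at 9.93 ± 4.64 FPKM in control and 25.6 ± 4.595 FPKM in stimulated macrophages (SD, n = 3 each), without overlap, with a log2 fold change of 1.44 (limma adjusted p = 0.154 from FPKM). The paper, from its own test, lists Tnf, Mmp9 and Mapkapk2 as upregulated and Ier5 as downregulated. It also reports higher Tnf by quantitative PCR. Il1b and Tnf also answer to NF-κB and other factors, so a target list does not report on AP-1 alone.

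Of 14 tested genes of the ATF4 stress response, 0 passed, and their median log2 fold change was 0.09. Nupr1, a stress-induced chromatin protein, was at 40.04 ± 15.2 FPKM in control and 68.7 ± 8.76 FPKM in stimulated macrophages (SD, n = 3 each, log2 fold change 0.86, limma adjusted p = 0.418). Chac1 and Phgdh, known ATF4 targets, had log2 fold changes of -1.30 and -0.77 (limma adjusted p = 0.806 and 0.664). Of 10 tested heat-shock genes, 0 passed, with a median of 0.15. Hspa8, the constitutive HSP70, was at 828 ± 41.8 and 972 ± 12.1 FPKM (log2 fold change 0.23, limma adjusted p = 0.152, and 0.00161 from estimated fragments), and Dnajb1 and Bag3, its co-chaperones, had log2 fold changes of 0.49 and -0.28 (limma adjusted p = 0.627 and 0.63).

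**Figure D5:**
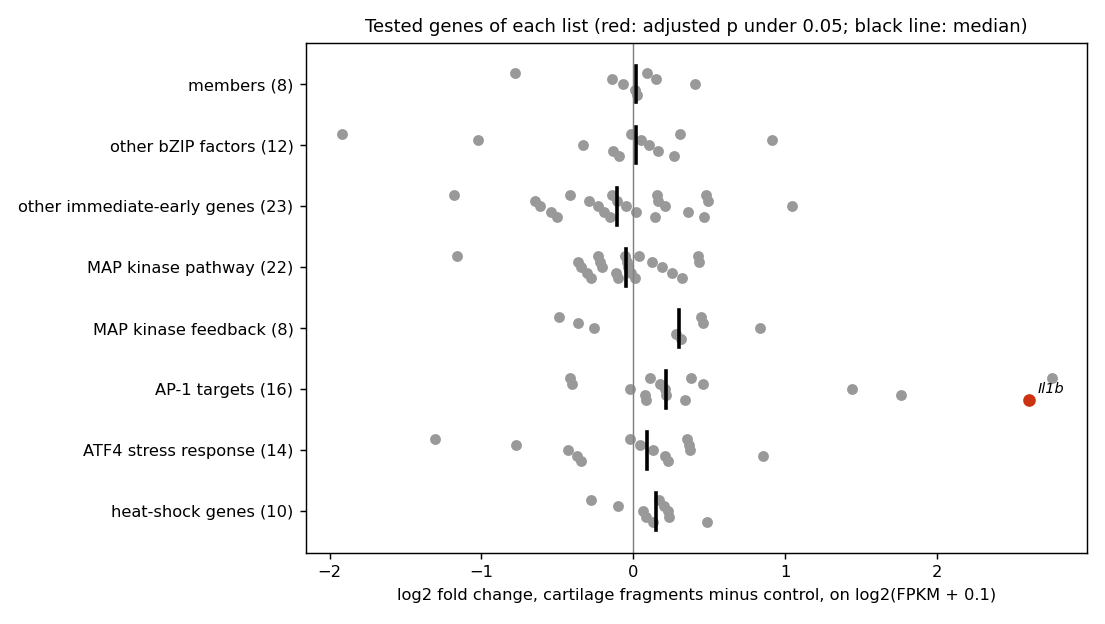
Log2 fold change, stimulated minus control on log2(FPKM + 0.1) (horizontal axis), of each tested gene (points) in the 10-gene group and 7 related lists, with list medians as black lines and the number tested in brackets. Il1b, the AP-1 target in red at 2.60, is the 1 gene past the threshold, while the tested genes of the 10-gene group have a median of 0.02.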

How the data were processed

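Total RNA of 6 BMM libraries (3 per group) was made into stranded mRNA libraries and sequenced by the authors as paired reads of 100 bases. Per the labels, reads were processed with TopHat, Bowtie, Cufflinks and Cuffdiff on mm10; versions are not given in the sources used here. The authors deposited FPKM for each transcript of each library, with its interval, and coverage (a signal of read depth per base).

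FPKM were summed per symbol, including unnamed assembled transcripts whose Cufflinks gene held 1 symbol. This was made the main matrix after results from named rows alone had been seen (10352 genes tested, 15 higher and 4 lower, against 10393 tested, 32 higher and 6 lower). The 10 genes, the lists and the tests were chosen with earlier results of these data known. Genes averaging 1 FPKM or more entered limma 3.58.1 (R 4.3.3; trend and robust) on log2(FPKM + 0.1), a scale on which fold changes of low genes depend on the pseudocount, p-values being adjusted by the Benjamini-Hochberg method and called below 0.05. A permutation test of 3 against 3 cannot go below p = 0.1. The fit was also run on simulated counts, drawn independently with a fixed spread and without unnamed transcripts. That run cannot vouch for the calls made here.

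Fragments were estimated as coverage times the transcript length less an offset of 206 to 224 bases, divided by 100, the offset giving the most whole numbers: 93.5% to 94.3% of values up to 8 lay within 0.1 of one. The library totals so estimated are far below the read number in the study's methods, and the cause was not tested. Intervals from fragments cover counting error only.

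Named genes were the 10; from each list, those past the threshold (at most 4), filled up to 3 by absolute log2 fold change; and 3 genes most correlated with each of Atf3 and Junb. Alternatives were other pseudocounts, filters, scalings, variance moderation, sample weights, transcript sets, estimated fragments, a replicate block and leaving out each library.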

Additional observations from a re-analysis of the deposited data

Results flagged for a closer look

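At 2 of the 10 genes, part of the FPKM lay in assembled transcripts that carry no gene symbol. At Junb in stimulated library 2 this was 38.6 FPKM, equal to the value of the reference transcript there, and both carried the quantification status for low data. At Fos in stimulated library 3 it was 14.6 FPKM. No control library had such a transcript at either gene. Both were drawn to attention because a count by symbol alone leaves them out. Whether they come from the cells or from the assembly of a library was not tested.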

How the results depend on the processing

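Under each of the 20 alternatives 0 of the members it tested passed the threshold (7 to 10 members; Fosb and Maff entered few of them). The number of all genes past it was 38 and was less stable: 18 without trend and robust moderation, 18 with the replicate block, 19 from reference transcripts only, 16 from the top reference transcript and 245 from estimated fragments. Leaving out 1 library gave 9 to 30 (22 without control library 1, 9 without stimulated library 1 and 19 without stimulated library 2). The lists around the 10 genes held 1 gene past it, 6 from estimated fragments and 1 to 2 when 1 library was left out. Deviations of same-numbered libraries of the groups had r = -0.093, 0.067 and 0.030, and differently numbered pairs ranged from -0.146 to 0.107. With 3 libraries per group, this cannot settle whether same-numbered libraries share an origin. The replicate block left Il1b past the threshold (limma adjusted p = 0.031), not Adgre1 (0.0585) or Cd14 (0.148).

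Log2 fold changes near 0 changed sign: Jun to -0.013 with equal totals and -0.0067 with quantile normalization, Ier3 to -0.025 and -0.0042 under the same, and Junb to -0.24 from reference transcripts only and from the top reference transcript. Mapk8 became 2.29 in both transcript sets. Leaving out 1 library gave -0.020 to 0.071 for Jun, -0.18 to 0.082 for Jund, -0.23 to 0.25 for Ier3, -1.81 to 0.53 for Batf2, -3.68 to -0.80 for Batf3, 0.39 to 1.48 for Jdp2, 1.08 to 3.82 for Ccl2, -2.14 to 0.25 for Myc and -2.18 to 0.0080 for Chac1. Keeping only genes with status OK in every library left Junb untested. Depth limits Egr1, Maff and Fosb most.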
